A study of Homo sapiens with 3 samples.

Results

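The genes described here are the long intergenic noncoding RNAs that carry a LINC number as their name and were expressed in T47D cells. A listed gene was kept when its name was LINC followed by digits, its mean over the 3 libraries was at least 0.5 FPKM and its quantification status was OK in each of them. FPKM is fragments per kilobase of transcript and per sequencing depth, so levels of different genes are compared per length. Of 58039 listed genes, 977 had such a name, 361 of these were above 0 in at least 1 library and 108 reached the mean. LINC00992, the gene of the knocked-down RNA ERINA, was set aside, which left 107 members. The members were thus selected on their measured FPKM, and their levels are given as a description. The mean gives the 2 knockdown libraries more weight than the control, and 12 members were under 0.5 FPKM in the control against 4 with shRNA1 and 5 with shRNA2.

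T47D is a human luminal breast cancer line that expresses the estrogen receptor. Cells were transduced with lentivirus carrying a short hairpin RNA (shRNA) and selected as stable lines with puromycin. The groups were 1 control library, called shCtrl in one label and given the shRNA "None" in another, and 2 ERINA knockdown libraries made with different hairpins, shRNA1 and shRNA2. No condition had a second library of the same construct and nothing says how many cultures each library came from. The only spread behind every p-value below is that between the hairpin libraries, of the gene itself and, pooled, of the other genes tested. Knockdown was set against control to see how these RNAs stood once ERINA was reduced. The estimated depth was 30700000 to 32000000 fragments, at which 0.5 FPKM over 1000 nt is about 15.3 to 16.0 fragments. The 9 luminal markers, ESR1, PGR, GATA3, FOXA1, KRT8, KRT18, KRT19, CDH1 and EPCAM, lay between 16.5 and 5210 FPKM in every library. The 9 markers read for leukocytes, endothelium, stroma and basal epithelium summed to 5.70 FPKM in the control and to 1.96 and 2.69 FPKM with the hairpins, of which COL1A1 made up 5.16, 1.65 and 2.10 FPKM and KRT5 0.323, 0.191 and 0.525, while CD3E was listed at 0 in all libraries. Their part in the results was not tested.

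Long intergenic noncoding RNAs are transcribed by RNA polymerase II, usually capped, spliced and polyadenylated like messenger RNAs, and mostly present at low levels. Some act in the nucleus on nearby genes, others in the cytoplasm on proteins or microRNAs, and a LINC number is a placeholder given to a locus before its function is known. Several such loci were later found to encode microproteins and received a protein name, while others were renamed as divergent transcripts, which start beside a coding gene and run the other way. ERINA has been described as an estrogen-inducible RNA that binds the cell cycle factor E2F1.

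ERINA itself stood at 63.4 FPKM in the control (deposited interval 38.4 to 88.5), 5.21 with shRNA1 (2.09 to 8.34) and 8.91 with shRNA2 (4.04 to 13.8). Neither hairpin interval reached up to that of the control. Its log2 change of -3.12 (SE 0.34) had a limma adjusted p (Benjamini-Hochberg) of 0.106, so even the targeted RNA did not pass at 0.05 in this design. In bulk RNA, fewer cells with a transcript and less transcript per cell cannot be told apart.

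The members were low-abundance RNAs with a few strong exceptions. Their median level in FPKM was 1.32 (control), 1.68 (shRNA1) and 1.66 (shRNA2), against a median of 12.0 for the means of the 12263 protein-coding genes tested. By mean FPKM, 29 members lay under 1, 66 from 1 to 10 and 12 at 10 or more, and 90 were at 0.5 FPKM or more in every library. All members together summed to 549.9 FPKM in control cells, 608.8 with shRNA1 and 620.9 with shRNA2, which was 0.0696%, 0.0708% and 0.0768% of the total. The 10 most abundant took 67.5%, 61.3% and 63.4% of those sums, and the top 2 alone took 33.5%, 30.6% and 31.5%. The deposited interval of a single library began at 0 for 34 members in control cells, 31 with shRNA1 and 34 with shRNA2. No member was listed at 0 in any library. Just inside the threshold were LINC01117 at a mean of 0.502 FPKM, LINC00592 at 0.506 and LINC00886 at 0.512. Just outside were LINC01465 at 0.492, LINC00899 at 0.420 and LINC01237 at 0.416.

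**Figure D1:**
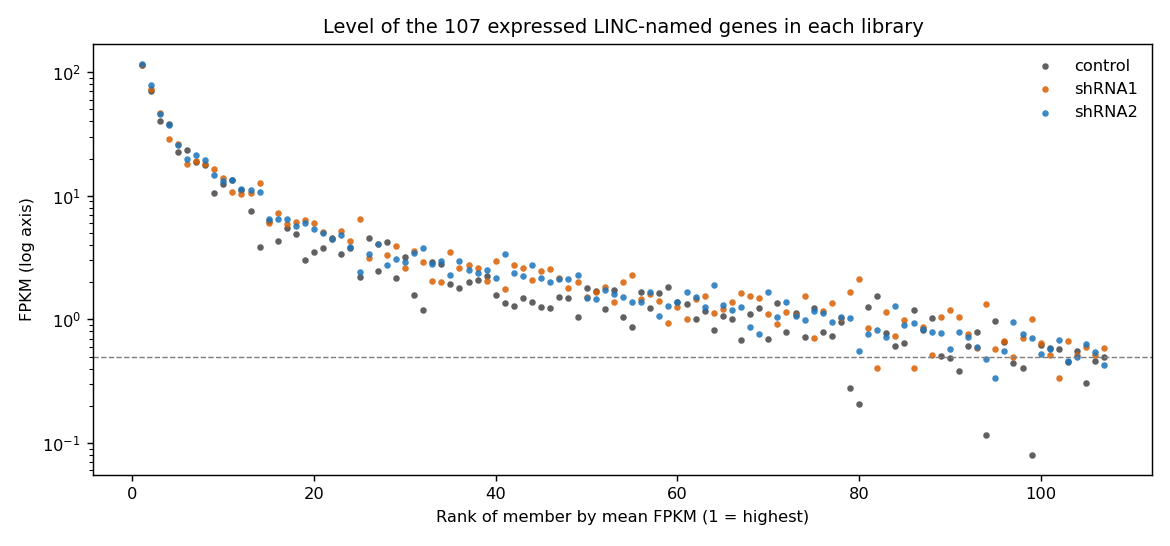
FPKM of each of the 107 members (log axis) against its rank by mean FPKM, with 1 point for the control (grey), shRNA1 (orange) and shRNA2 (blue) and a dashed line at 0.5 FPKM. The 12 members at 10 FPKM or more stand at the left, and most of the points that fall far under the dashed line belong to the control.

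The most abundant members included several that a later annotation treats as coding. GENCODE release 29 calls 6 of the 107 protein-coding, namely LINC00493 (SMIM26), LINC00998 (SMIM30), LINC01420 (NBDY), LINC00116 (MTLN), LINC00094 (BRD3OS) and LINC01125 (C2orf92), and 5 of them were at 10 FPKM or more. The coding sequences of the 3 most abundant are shown because they mark which of the highest members are not noncoding in that release. They are spliced GENCODE 29 sequences on GRCh38, 5′ to 3′, with the start and stop codons in capitals. The SMIM26 codons run from chr20:18567479-18569402 on the plus strand, those of SMIM30 from chr7:113117402-113117578 on the minus strand and those of NBDY from chrX:56729354-56729557 on the plus strand, each without the stop codon.
SMIM26: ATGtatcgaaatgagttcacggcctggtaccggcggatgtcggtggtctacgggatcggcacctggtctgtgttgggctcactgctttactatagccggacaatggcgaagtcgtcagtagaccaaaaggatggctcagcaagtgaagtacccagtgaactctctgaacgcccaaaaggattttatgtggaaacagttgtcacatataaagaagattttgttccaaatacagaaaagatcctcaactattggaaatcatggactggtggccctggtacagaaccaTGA
SMIM30: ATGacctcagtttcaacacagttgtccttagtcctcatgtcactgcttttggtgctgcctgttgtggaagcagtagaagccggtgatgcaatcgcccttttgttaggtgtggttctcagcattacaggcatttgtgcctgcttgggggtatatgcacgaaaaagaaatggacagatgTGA
NBDY: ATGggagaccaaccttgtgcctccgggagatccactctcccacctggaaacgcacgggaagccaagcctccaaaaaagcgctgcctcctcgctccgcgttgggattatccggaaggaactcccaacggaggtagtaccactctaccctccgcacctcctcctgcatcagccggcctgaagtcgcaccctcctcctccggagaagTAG
They are 288, 180 and 207 nt long with the stop and hold 95, 59 and 68 codons before it.

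SMIM26, a small mitochondrial protein, was the highest member at 113.7 FPKM in control cells, 113.7 with shRNA1 and 117.3 with shRNA2, and the highest library was 1.03-fold above the lowest. SMIM30, a microprotein of the endoplasmic reticulum membrane, was at 40.2, 46.8 and 45.9 FPKM in the same order. NBDY, which binds the mRNA decapping complex of P-bodies, was at 38.2, 28.9 and 37.3 FPKM, with shRNA2 at the control level and shRNA1 under it. MTLN, a microprotein of the inner mitochondrial membrane, was at 22.6, 26.2 and 25.7 FPKM. BRD3OS, which lies across the exons of BRD3 on the other strand, was at 17.9, 18.0 and 19.6 FPKM. C2orf92 was low at 0.408, 0.704 and 0.762 FPKM. Of 15 LINC names set down as giving a protein or microprotein, 7 were members, these 5 abundant ones together with LINC00467 and LINC00665. Of these 7, 6 were above the control with both hairpins and NBDY below it. Of all members 64.5% were above and 24.3% below, and of all genes tested 42.3% and 42%. The mean changes of SMIM26 and BRD3OS turned negative once libraries were scaled to the same total FPKM. The median log2 change of the 7 was 0.11, and none passed limma (adjusted p 0.208 to 0.866).

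Of the most abundant members that remain noncoding in that release, CHASERR (LINC01578), an RNA that lowers the expression of its neighbour CHD2, led with 70.6 FPKM in control cells, 72.5 with shRNA1 and 78.5 with shRNA2. CYTOR (LINC00152), a cytoplasmic RNA studied in many tumours, was at 23.4, 17.9 and 19.8 FPKM, lower with both hairpins by a log2 change of -0.30 (SE 0.11, limma adjusted p 0.188). LINC00467 was at 18.6, 19.0 and 21.4 FPKM, and LINC00665 at 12.4, 13.9 and 13.2. LINC00339 was at 11.1, 10.3 and 11.2 FPKM, with the hairpins on either side of the control. LINC00963 differed most among the 10 highest, with 10.5 FPKM in control cells, 16.4 with shRNA1 and 14.8 with shRNA2 and a log2 change of 0.54 (SE 0.12, limma adjusted p 0.117). In the order of levels the neighbours CYTOR, LINC00467, BRD3OS, LINC00963 and LINC00665 had overlapping deposited intervals in each library and cannot be ranked against one another.

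Knockdown against control gave no member past the test. limma on log2(FPKM + 0.5), a scale that understates the change of low genes, covered the 14575 genes that met the same level and status rule. At a threshold of 0.05 on the Benjamini-Hochberg adjusted p it called 7 of them higher (0.048%), 26 lower (0.178%) and 0 of 107 members in either direction, with member adjusted p from 0.106 to 0.979. At an unadjusted p under 0.05, 21 members (19.6%) were higher against 12.9% of all genes, and 1 (0.935%), LINC01194, was lower against 15%. LINC01194 was at 4.56 FPKM in control cells, 3.15 with shRNA1 and 3.36 with shRNA2. In a fit without genes whose longest transcript is under 300 nt, 7 of 107 members passed as higher, against 5.49% of all genes. With a robust prior 1 member (0.935%), LINC01021, passed, against 0.556% of all genes. The 7 were LINC01021, LINC00885, LINC01063, LINC00909, LINC01004, LINC00963 and LINC00160, with limma adjusted p from 0.0104 to 0.0422. LINC01004 and LINC00160 were at 0.0798 and 0.278 FPKM in the control. They met the level rule only through the knockdown libraries, which favours a higher call.

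By direction, members lay above the control more often than below it. With both hairpins, 69 of 107 (64.5%) were above the control against 42.3% of all genes tested, and 26 (24.3%) were below it against 42%, while 12 had the hairpins on either side. The comparisons with shRNA1 and shRNA2 share the control library, so these counts hold any deviation of that one library. The median log2 change of members was 0.20, being 0.27 with shRNA1 and 0.19 with shRNA2, and that of all genes tested was 0.0027. It was 0.15 for members under 1 FPKM, 0.36 from 1 to 10 FPKM and 0.08 at 10 FPKM or more. Among the 90 members at 0.5 FPKM or more in every library the median was also 0.20. With both hairpins, 58 (64.4%) of these were above and 22 (24.4%) below the control. Of the 13616 genes tested that met this stricter rule, 42.2% were above and 42.6% below. Scaling the libraries to the same total FPKM lowered the median of members to 0.13 and that of all genes to -0.07. Then 63 members were above and 29 below the control with both hairpins. Shares over all genes were not counted under that scaling.

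The tilt upward was not limited to genes deposited under a LINC name. The 281 genes tested with an antisense name ending in -AS had a median log2 change of 0.25, with 61.2% above the control with both hairpins and 19.6% below. The 395 other GENCODE lincRNAs deposited without a LINC name had a median of 0.24, with 60.5% above and 21.3% below. Genes that carry a LINC number only in the present gene table were not taken out of these sets. The 12263 protein-coding genes had a median of -0.02, with 40.7% above and 45.0% below. Counting only the 101 members noncoding in GENCODE 29 gave 0.24. The difference between these classes was described and not tested.

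**Figure D2:**
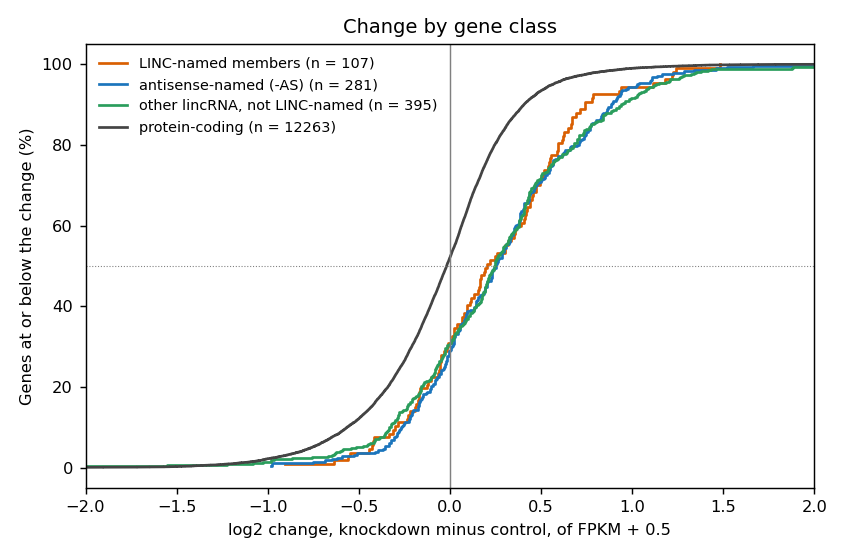
Cumulative share of genes (%) against log2 change, knockdown minus control, of FPKM + 0.5, for the 107 members (orange), 281 antisense-named genes (blue), 395 other lincRNAs (green) and 12263 protein-coding genes (dark grey). The 3 noncoding curves run together to the right of the protein-coding curve, crossing 50% at 0.20, 0.25 and 0.24 against -0.02.

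LINC01021 had the largest change of any member on the log2(FPKM + 0.5) scale. With a pseudocount of 0.1 its change was 1.57, under those of LINC01004 (2.39), LINC00458 (2.07), LINC01605 (1.99) and LINC00160 (1.90). It is now named PURPL and lies at chr5:27472292-27496401 on the plus strand (GRCh38, GENCODE 29), with no exon shared with another gene. PURPL was at 3.85 FPKM in the control (deposited interval 1.23 to 6.47), 12.7 with shRNA1 (5.84 to 19.6) and 10.7 with shRNA2 (4.31 to 17.0). Both hairpin values lay above the control's upper bound, and the control value lay below both hairpins' lower bounds, although the intervals overlapped. The log2 change was 1.48 (SE 0.16, n = 1 control and 2 knockdown libraries, limma adjusted p 0.106).

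Promoters were read from RefSeq (GRCh38.p14), 250 bases before the start and 50 after, for the 80 members found there and for all 35116 promoters of that length. Motifs were searched on both strands. For E2F, the factor that ERINA is described to bind, only the spellings TTTCCCGC and TTTGGCGC were searched. Either of these was in 2 of 80 member promoters (2.5%) against 2.27% of all. The cell cycle element CHR, TTTGAA, was in 10% against 15.2%, and the CCAAT box, CCAAT, in 38.8% against 34.6%. These matches are letters in a window and say nothing of binding.

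At least 2-fold higher with both hairpins (ratio of FPKM + 0.5) were 3 members, LINC01021, LINC01004 and LINC01063, against 1.38% of all genes, and 0 were 2-fold lower against 1.45%. LINC01063, a 2-exon RNA at chr3:196631498-196632587 on the minus strand, was at 1.19 FPKM in control cells, 2.91 with shRNA1 and 3.79 with shRNA2, a log2 change of 1.18 (SE 0.22, limma adjusted p 0.110). LINC01004, at chr7:104950315-105013044 on the minus strand, was at 0.0798 FPKM in the control, where its interval began at 0, and at 1.01 and 0.702 with the hairpins. It passed the level rule only through the knockdown libraries. With shRNA1 alone, 8 members were 2-fold higher against 2.98% of all genes, and LINC00482 alone was 2-fold lower against 3.36%. Of the 8, LINC00160, LINC00458 and LINC01605 were, like LINC01004, under 0.5 FPKM in the control, at 0.278, 0.117 and 0.207. They too met the level rule only through the knockdown libraries, which favours a higher count. With shRNA2 alone, 4 were 2-fold higher against 2.02%, and 0 were lower against 1.85%. No member had deposited intervals of both hairpins wholly above the control's (0.11% of all genes did) or wholly below it (0.206%).

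At the smaller fold of 1.5, 11 members were higher with both hairpins against 4.73% of all genes, and 1 was lower against 6.2%. LINC00885, an RNA at chr3:196142636-196160890 on the plus strand described in breast cancer, was at 3.02 FPKM in control cells, 6.35 with shRNA1 and 6.01 with shRNA2, a log2 change of 0.93 (SE 0.13, limma adjusted p 0.106). Both hairpin values again lay outside the control's interval of 1.46 to 4.57. PURPL and LINC00885 were the only 2 members for which each hairpin value and the control value fell outside the other's interval. They were 1.87% of members, against 0.672% of all genes that met this rule as higher, and 0 members met it as lower, against 1.72% of all genes. LINC00909, now ZNF407-AS1, was at 1.59, 3.59 and 3.43 FPKM, with all 3 intervals starting at 0. LINC01508 was at 1.28, 2.77 and 2.39 FPKM, LINC01389 at 1.04, 2.0 and 2.28, LINC01547 at 1.26, 2.46 and 2.16 and LINC01232 at 2.48, 4.05 and 4.10. In each of these the hairpin libraries were closer to each other than to the control. LINC00160 and LINC00458 were under 0.5 FPKM in the control, at 0.278 and 0.117, and stood at 1.68 and 1.32 with shRNA1 and at 1.02 and 0.477 with shRNA2. Like LINC01004, they met the level rule only through the knockdown libraries.

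LINC00482, a 4-exon RNA at chr17:81303771-81309248 on the minus strand, was the 1 member at least 1.5-fold lower with both hairpins. It was at 1.54 FPKM in the control (0.533 to 2.56), 0.401 with shRNA1 (0 to 0.819) and 0.822 with shRNA2 (0.0752 to 1.57). The intervals overlapped, and the log2 change was -0.91 (SE 0.32, limma adjusted p 0.182).

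**Figure D3:**
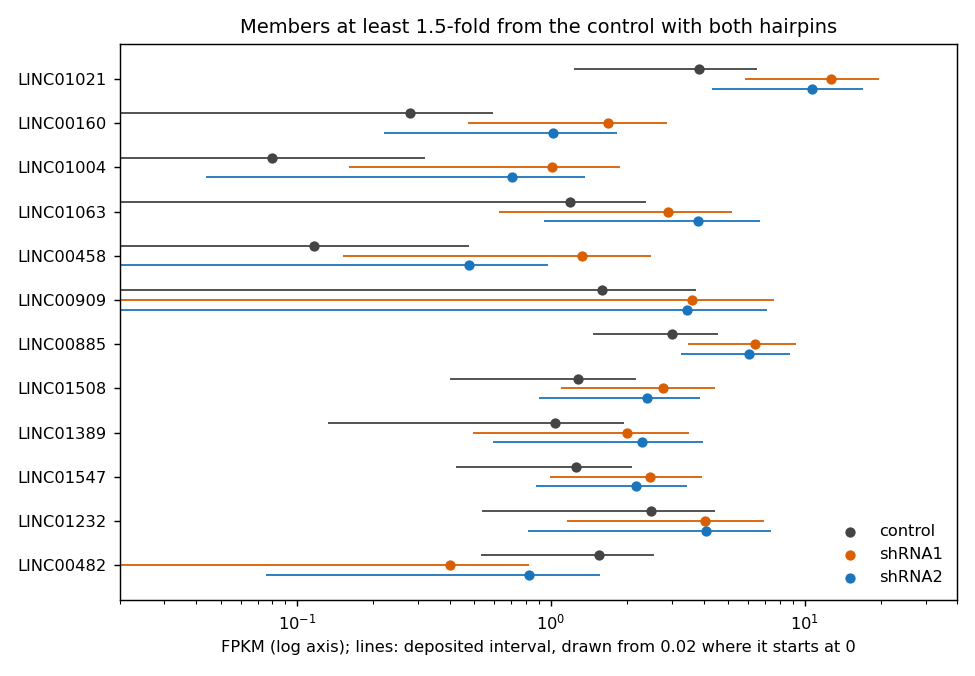
FPKM (log axis) of the 12 members at least 1.5-fold from the control with both hairpins, with points for the control (grey), shRNA1 (orange) and shRNA2 (blue) and lines for the deposited interval of each library, drawn from 0.02 where it starts at 0. Only LINC01021 and LINC00885 have hairpin points beyond the control's line and a control point short of both hairpin lines, and LINC00482 is the only one with the control on the right.

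Among RNAs tied to the estrogen receptor or breast cancer, 4 of 10 names set down were members, LINC00885, LINC01089, LINC00472 and LINC00511. Their median log2 change was 0.51, and none passed limma (adjusted p 0.106 to 0.425). With both hairpins 3 were above the control, where 64.5% of all members and 42.3% of all genes tested also lay. A list of 4 cannot be set apart from the members in general. LINC00472, reported as tumour-suppressive in breast cancer, was at 0.605 FPKM in control cells, 0.730 with shRNA1 and 1.28 with shRNA2, with intervals starting at 0. LINC00511, reported as growth-promoting, was at 1.27, 0.846 and 0.756 FPKM, below the control with both hairpins. LINC01016, a known target of the estrogen receptor, stayed out with 0.0288, 0.294 and 0.0761 FPKM, and LINC00052 with 0.0320, 0.0156 and 0.0154.

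Of 16 names of RNAs with studied nuclear or cytoplasmic roles, 8 were members, with a median log2 change of 0.21. With both hairpins 5 were above and 1 below the control, against 64.5% and 24.3% of all members and 42.3% and 42% of all genes. None passed limma (adjusted p 0.142 to 0.859). LINC00667 was at 3.40, 5.15 and 4.82 FPKM, and LINC00662 at 4.87, 6.13 and 5.74, both with the hairpins close together. LINC01138 was at 0.816, 1.13 and 1.91 FPKM, with the hairpins farther from each other than shRNA1 from the control. LINC01116, with its nearest coding gene MTX2 291564 nt away, was at 1.51, 2.16 and 2.10 FPKM. Its neighbour LINC01117 was at 0.495, 0.588 and 0.424. LINC00839 was at 0.771, 1.15 and 0.715 FPKM, so only shRNA1 was above the control. Over the 3 sets of names, 16 of 40 were listed under 0.5 FPKM and 6 were not listed under that name. A name that is not listed need not mean an absent gene. LINC01833, from the breast list, was listed as RP11-89K21.1, at 1.17, 2.09 and 3.19 FPKM.

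The hairpins gave similar levels for most members. The ratio of FPKM + 0.5 between shRNA1 and shRNA2 was under 1.5-fold for 100 of 107. The share of all genes under 1.5-fold was not counted. The median ratio was 1.11-fold for members, against 1.09-fold for all genes tested. For members it was 1.21-fold under 1 FPKM, 1.12-fold from 1 to 10 FPKM and 1.09-fold at 10 FPKM or more. All genes tested had 1.17-fold, 1.11-fold and 1.07-fold at these levels, so members were slightly farther apart. At least 2-fold apart were 2 members (1.87%), LINC00680 and LINC01605, against 1.37% of all genes. By level the shares were 3.45% of members against 4.36% of all genes under 1 FPKM and 1.52% against 1.42% from 1 to 10 FPKM. At 10 FPKM or more they were 0% against 0.695%. LINC00680 was at 2.22 FPKM in control cells, 6.55 with shRNA1 and 2.44 with shRNA2, so only shRNA1 stood away from the control. GENCODE 29 lists it as a transcribed unprocessed pseudogene at chr6:57946074-57961501 on the minus strand, a type that can share reads with its parent gene, and its intervals with the hairpins began at 0. LINC01605 was at 0.207, 2.14 and 0.559 FPKM, with every interval starting at 0. Another listed gene, RP11-150O12.6, now carries the same symbol LINC01605. It was at 0.433, 1.67 and 3.09 FPKM, with both hairpins above the control and shRNA2 the higher. LINC00458, LINC01278, LINC01023 and LINC01136 were the next farthest apart. LINC01278 was at 1.37, 1.76 and 3.39 FPKM, with shRNA2 the higher, unlike in LINC00680. LINC01136, now BTG2-DT, was at 1.19, 0.407 and 0.944 FPKM, and LINC01023, a single-exon RNA, at 1.23, 1.5 and 0.756.

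**Figure D4:**
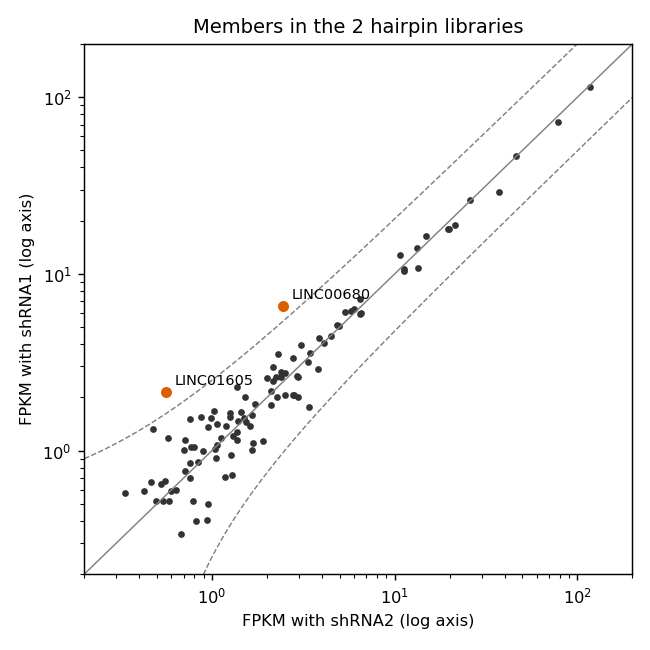
FPKM with shRNA1 against FPKM with shRNA2 (both log axes) for the 107 members, with a solid line at equality and dashed lines where the ratio of FPKM + 0.5 is 2. LINC00680 and LINC01605 (orange) are the 2 members outside the dashed lines, and points scatter more widely at low levels.

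The loci of the members differ in kind. GENCODE 29 types 73 as lincRNA, 10 as antisense, 10 as processed transcript, 6 as pseudogene types, 6 as protein-coding and 2 as bidirectional promoter RNA, and the present gene table gives 22 another symbol, 7 of them a divergent one ending in -DT. The median longest transcript was 2161 nt with 3 exons, and 11 members had a single exon in it. An exon of another gene overlapped 44 members, and their median log2 change was 0.10 against 0.30 for the 63 without such an overlap. Whether reads were counted by strand is not given in the sources used here, so fragments of overlapping genes on opposite strands may not be separable. LINC01089, which shares exon sequence on the same strand with a coding gene, was at 4.35, 7.19 and 6.44 FPKM, with intervals starting at 0. LINC00592 overlaps the span of the keratin gene KRT80 and was at 0.463, 0.516 and 0.541 FPKM, while KRT80 was at 11.2, 4.02 and 5.43.

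A coding gene started within 1000 nt on the other strand for 17 members. The median log2 change was 0.44 in these members and 0.18 in their coding partners, and 0 partners passed limma. LINC01006 (RNF32-DT) was at 3.51, 6.06 and 5.36 FPKM and its partner RNF32 at 1.15, 1.99 and 1.96, both higher with both hairpins. LINC01547 was higher with both hairpins, whereas its partner FAM207A was at 17.1, 16.3 and 15.8 FPKM. PRANCR (LINC01481) was at 1.67, 1.46 and 1.38 FPKM, while CNOT2, a subunit of the CCR4-NOT deadenylase, was at 37.3, 54.4 and 50.4. BTG2, the growth-inhibiting partner of BTG2-DT, was at 10.9, 9.97 and 10.4 FPKM. Across 73 members whose nearest coding gene was tested, the log2 changes of member and neighbour correlated at r = -0.06 and rho = -0.06. That correlation is across genes of the same 3 libraries and is a description only. The median distance to the nearest coding gene was 9760 nt.

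Genes that degrade noncoding and faulty RNA, from the nuclear exosome and its adaptors to the nonsense-mediated decay factors, were read beside the members. Of 31 measured, 0 passed limma, 3 (9.68%) were higher and 2 (6.45%) lower at an unadjusted p under 0.05, against 12.9% and 15% of all genes, and the median log2 change was 0.07. EXOSC3, an exosome cap subunit, had the largest decrease in level, at 23.6, 16.3 and 18.2 FPKM (log2 change -0.44, limma adjusted p 0.130). SRRT, which joins the cap-binding complex to RNA processing, had the largest increase, at 25.2, 33.1 and 30.8 FPKM (0.33, limma adjusted p 0.144). The part of these genes in the members' levels was not tested.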

How the data were processed

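RNA-seq of T47D cells with 1 control and 2 ERINA knockdown libraries was used as deposited. The values are FPKM that the authors deposited with a lower and an upper confidence bound and a status per gene and library, per the file headers. The submitters' processing notes name STAR, RSEM and GRCh38 without saying what each was used for. Not given in the sources used here are the annotation, the software behind the bounds and whether libraries were scaled to one another. No count model was used, and depth was estimated from genes whose bounds imply a single fragment (implied SD within 0.05 of the FPKM, 1 transcript of at least 1000 nt; 304, 328 and 355 genes). The total FPKM was 790290, 860240 and 808451.

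The test was limma 3.58.1 (R 4.3.3; lmFit, eBayes with trend) on log2(FPKM + 0.5), knockdown minus control, with 1 residual degree of freedom, for 14575 genes with a mean of at least 0.5 and status OK, Benjamini-Hochberg adjusted over all of them. The prior variance, drawn from all genes tested, carried 2.63 degrees of freedom. The control is assumed to vary like the hairpins. Gene types and positions came from GENCODE 29, which held 57435 (99.0%) of the listed gene IDs and all members, and promoters from RefSeq. Tables were made with Python 3.11.15, pandas 2.3.3 and numpy 2.4.6, and plots with matplotlib 3.10.9.

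The members and lists were chosen with earlier results of these data known. Members named in the text were the 10 highest, up to 10 each way with the largest change among those 1.5-fold or more with both hairpins, the 6 farthest apart between hairpins, those on the 3 role lists and those at the threshold. LINC01194, LINC01232, LINC01006, LINC01481 and LINC01125 were named after their values were seen. Some genes, 1 marker of other cells among them, are not reported here. Alternatives covered the pseudocount, filter, scaling, prior, fold and each hairpin alone.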

Additional observations from a re-analysis of the deposited data

How the results depend on the processing

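With 1 control library, no error of the control was measured; the depth limits what the lowest members can show. No paired analysis was possible because the control is a single library. No member was called lower by limma under any alternative run, and none higher except 1 with the robust prior and 7 with genes of at least 300 nt only, a fit with fewer genes. Calls over all genes, higher and lower, were 11 and 35 with a mean of at least 1 FPKM and again 11 and 35 with the same median ratio, 0 and 0 without a filter, 32 and 68 with the same total FPKM, 4 and 30 without a trend, 81 and 138 with the robust prior and 778 and 1044 with genes of at least 300 nt only. The cause of these shifts was not tested. Without a filter, 18 members had an unadjusted p under 0.05 as higher and 0 as lower. Shares over all genes at that p were not counted in the fit without a filter, so these counts have no background. The members' median change was 0.13 with the same total FPKM and 0.19 to 0.27 with 1 hairpin left out. Members 2-fold higher with both hairpins numbered 7 with a pseudocount of 0.1, 1 with a pseudocount of 1 and 4 to 8 with 1 hairpin left out, and 2-fold lower 0 to 1 with 1 left out. At a fold of 1.5 they numbered 11 and 1. Members 2-fold apart between hairpins numbered 4 with a pseudocount of 0.1 and 1 with a mean of at least 1 FPKM. Shares of all genes that were 2-fold higher or 2-fold apart were not counted for the changed pseudocounts or that filter. Taking point values outside the other interval in place of clear intervals gave 2 members higher and 0 lower, against 98 and 251 of all genes. With the same total FPKM, 3 named members turned negative, LINC00094 (-0.0086), LINC00493 (-0.055) and LINC01117 (-0.030), and the other 35 of 38 kept their direction and side of the threshold. Medians and counts over genes at 0.5 FPKM or more in every library were added after seeing the data.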

Other observations

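Other genes carry a LINC number in the present gene table but another name in the deposited one. Of these, 85 had a mean of at least 0.5 FPKM, a rule that gives the 2 knockdown libraries more weight than the control. Some were under 0.5 FPKM in the control, such as LINC02762 (RP11-356J5.12) at 0.110, against 1.02 and 0.602 with the hairpins. Genes at 0.5 FPKM or more in every library were not counted apart for this set. The median log2 change of the 85 was 0.34. With both hairpins, 59 (69.4%) were above and 17 (20%) below the control, against 42.3% and 42% of all genes tested. None passed limma, and at an unadjusted p under 0.05, 25 (29.4%) were higher and 3 (3.53%) lower, against 12.9% and 15%. LINC02950 (listed as CTA-398F10.2) was at 0.779, 7.10 and 4.60 FPKM (control, shRNA1, shRNA2). LINC02028 (RP11-407B7.1) was at 0.701, 5.30 and 4.09 FPKM. LINC02830 (RP11-3B12.5) was listed at 0 in the control library, and its hairpin values were 2.70 and 1.64 FPKM. In the other direction, LINC02802 (RP11-14N7.2) was at 3.35, 1.22 and 1.08 FPKM, and LINC02864 (RP11-169F17.1) at 16.5, 10.6 and 11. These genes were picked for their values after those were seen. RP11-150O12.6, whose present symbol LINC01605 is also the deposited name of a member, is among the 85.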
